A study of Homo sapiens with 11 samples.

Results

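ARPE-19 cells that carried Oct4, Sox2 and Klf4 together (OSK) were compared with ARPE-19 cells that carried GFP, by RNA sequencing after 4 days of open reading frame expression. ARPE-19 is an immortal human cell line derived from the retinal pigment epithelium (RPE), the pigmented cell layer behind the photoreceptors. All lines were described as stable lines, and the GFP line, which carries a fluorescent protein in place of a factor, is the control. There were 3 GFP libraries and 2 OSK libraries. The series held 11 libraries in all, with 2 each from lines carrying Oct4, Sox2 or Klf4 singly. Genes entered with a normalised count of 10 or more in at least 2 of the 11 libraries, which kept 18828 of the 60605 listed features. The OSK and single-factor library names add "mC", which the GFP names lack and the labels do not explain. The vector, its promoter, the species of the open reading frames and whether a line is 1 clone are not given in the sources used here. The labels do not say that replicates were separate cultures, so p-values measure the spread between these libraries, which may be technical.

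Oct4 (gene POU5F1), Sox2 and Klf4 are DNA-binding transcription factors. In standard reprogramming they act together, usually with Myc, to silence a somatic programme early and to open the pluripotency network later. RPE cells make melanin, recycle retinoids, rest on a basement membrane and form a tight epithelial sheet, and ARPE-19 keeps these traits to a varying degree with culture.

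The 5 libraries held 15556526 to 18125321 reads. GFP replicate 1 and OSK replicate 1 stood apart in the number of features with at least 1 read, at 42956 and 32493, against 25853 to 26971 in the other 9 libraries. Olfactory receptor genes, which this tissue is not known for, were also widely detected there: 67.7% of 405 listed genes had a read in the first GFP library and 23.0% in the first OSK library, and 4.94% to 8.15% did elsewhere. Results are therefore also given without GFP replicate 1, and where needed without both. Markers of immune, endothelial and blood cells were low: 6 of 24 listed genes passed the filter, and the summed level of all 24 was 223 to 492 in GFP and 104 to 211 normalised counts in OSK. PTPRC, the pan-leukocyte marker, held at most 2.02 normalised counts in the 5 libraries. Among RPE markers PMEL, TYR, TYRP1, MITF, OTX2, RLBP1, BEST1, KRT8 and KRT18 passed the filter, whereas the defining visual cycle gene RPE65 held at most 1.10 normalised counts, TTR at most 4.97 and DCT at most 9.93.

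The delivered factors were high in both OSK libraries. POU5F1 held 276.1, 251.9 and 262.5 normalised counts in GFP replicates 1 to 3 and 19020.3 and 19542 in OSK replicates 1 and 2. SOX2 held 82.4, 59.7 and 43.7 in GFP and 17764 and 17582 in OSK. KLF4 held 124.1, 45.5 and 46.7 in GFP and 24469.8 and 24202 in OSK. No GFP library came near an OSK library for any of the 3 genes, and GFP replicate 1 was the highest GFP library for each. Their log2 differences, on the log2(value + 1) scale used throughout, were 6.19 (SE 0.17), 8.18 (SE 0.18) and 8.54 (SE 0.29), and that of KLF4 was 9.01 without GFP replicate 1. Reads from a delivered frame and from the cell's own gene cannot be told apart in these counts. The pluripotency network did not rise with them: of 17 tested genes 0 were higher and 10 lower (58.8%). Of all genes tested, 19.7% were higher and 20.0% lower. A further 13 listed genes were below the filter. NANOG, the network's central homeobox gene, held 16.9, 14.2 and 14.6 in GFP and 8.67 and 12.1 in OSK and was not past the threshold. KLF2 and KLF5, relatives of KLF4 that act in embryonic stem cells, fell by 2.18 and 1.14. The lower count was 5 without OSK replicate 1 and 7 without GFP replicate 1.

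**Figure D1:**
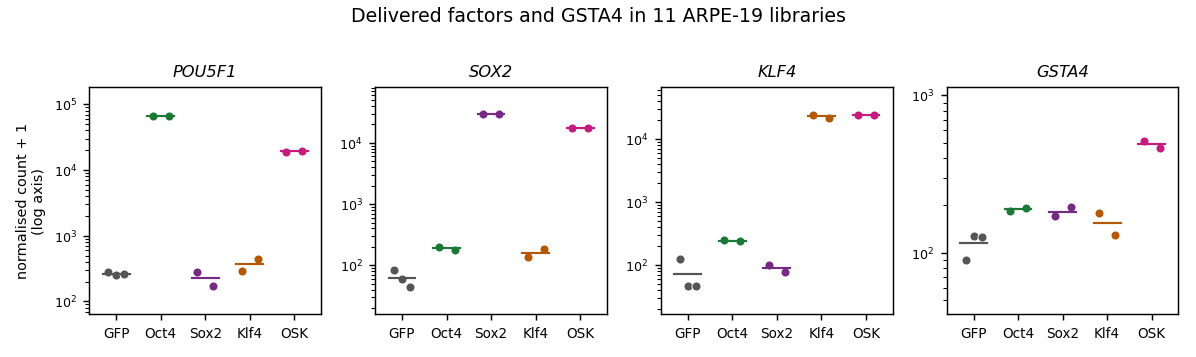
Normalised count + 1 (log axis) of the 3 delivered factors and GSTA4 by line, with 1 point a library and a bar at the mean of each line. The OSK libraries lie above the GFP libraries in every panel, with GSTA4 at 464 to 515 against 88.4 to 127.

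Across all genes tested, 7471 differed between OSK and GFP at a Benjamini-Hochberg adjusted p under 0.05 (limma), which is 39.7% of 18828. Of these 3712 (19.7%) were higher and 3759 (20.0%) lower in OSK. Many differences were small: the median size was 0.67 on the log2 scale, and 2698 genes (36.1%) changed by less than 0.5. Large rises outnumbered large falls, with 449 genes higher and 312 lower by log2 2 or more, and 63 higher against 7 lower by 4 or more. Among called genes, both OSK libraries lay above every GFP library for 3690 and below for 3732, and the groups overlapped for 49. Over all genes tested the same held for 29.3% and 29.2%. The median difference over all genes was -0.01.

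**Figure D2:**
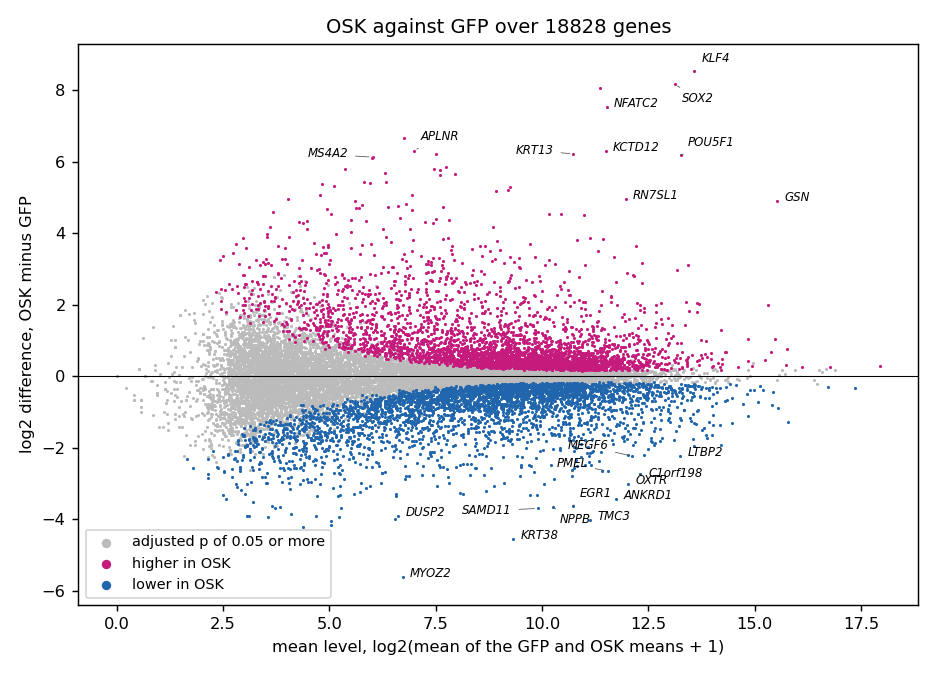
Log2 difference of OSK and GFP (vertical axis) against mean log2 level (horizontal axis) for each of the 18828 genes tested, with called genes coloured by direction and the others grey. Labelled genes are among the largest changes, and rises reach further from 0 than falls.

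Beside the delivered factors, the large rises included gelsolin, an actin-severing protein. GSN held 3087, 3071 and 2869.6 normalised counts in GFP and 89669 and 92031 in OSK. The libraries of each group lay close together and far from the other group. The difference was 4.92 (SE 0.08, adjusted p = 1.33e-15), which is 30.2-fold on the means. The single-factor lines held 4474 and 3843 (Oct4), 7224 and 6431 (Sox2) and 7363 and 7689 (Klf4), and OSK exceeded Klf4 by 3.59 (SE 0.08, adjusted p = 6.03e-13). KCTD12, which modulates GABA-B receptor signalling, rose from 55.6, 94.1 and 71.0 in GFP to 5436 and 6016 in OSK, a difference of 6.29 (SE 0.17, adjusted p = 3.43e-13), and held 401.4 and 377.1 in the Klf4 line. KRT13, a keratin of internal stratified epithelia, rose from 28.8, 48.6 and 59.3 in GFP to 3832 and 2913 in OSK (log2 difference 6.23), and FLG, the filaggrin of cornified skin, rose by 5.29. Among the largest rises was NFATC2, a calcineurin-driven transcription factor, at 53.6, 19.2 and 27.2 in GFP and 5742 and 5964 in OSK (log2 difference 7.54, SE 0.27).

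Some large rises began from very few reads. APLNR, the apelin receptor, held 13.9, 1.01 and 0 in GFP and 255.8 and 235.4 in OSK (log2 difference 6.31, SE 0.98, adjusted p = 7.55e-05). MS4A2, a subunit of the mast cell IgE receptor, held 4.97, 0 and 0 in GFP and 129.0 and 123.2 in OSK (log2 difference 6.13, SE 1.00, adjusted p = 0.000132, and adjusted p = 0.0665 with DESeq2). In both genes GFP replicate 1 was the highest GFP library. TP73, a p53 relative, held 20.9, 5.06 and 1.94 in GFP and 445.5 and 393.8 in OSK (log2 difference 5.85). RN7SL1, whose RNA has many near copies in the genome and is therefore uncertain here, held 952.3, 128.5 and 113.7 in GFP, 9194 and 6081 in OSK and 188.5 and 6975 in the Klf4 line.

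MYOZ2 had the largest fall among genes with a mean of at least 100 normalised counts in the higher group. It encodes a sarcomere protein that binds calcineurin, and held 149.0, 258.0 and 214.8 in GFP and 2.17 and 4.4 in OSK (log2 difference -5.62, SE 0.33, adjusted p = 2.14e-09), so OSK held only a few reads. KRT38, a hair keratin, fell by 4.55 on the log2 scale, and TMC3, a member of the transmembrane channel-like family, fell by 4.01. OXTR, the oxytocin receptor, held 5500.4, 8321 and 8402 in GFP and 808.7 and 978.9 in OSK, and NPPB, the natriuretic peptide gene, held 1206, 3112 and 2509 in GFP and 147.4 and 184.8 in OSK. ANKRD1, a YAP and stretch-responsive gene, held 4164, 7899.9 and 6896 in GFP and 563.7 and 563.1 in OSK, a difference of -3.43 (SE 0.18, adjusted p = 5.75e-10). For these genes GFP replicate 1 was the lowest GFP library, yet both OSK libraries lay below it. LTBP2, a microfibril protein, fell by 2.22 and MEGF6 by 2.24.

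**Figure D3:**
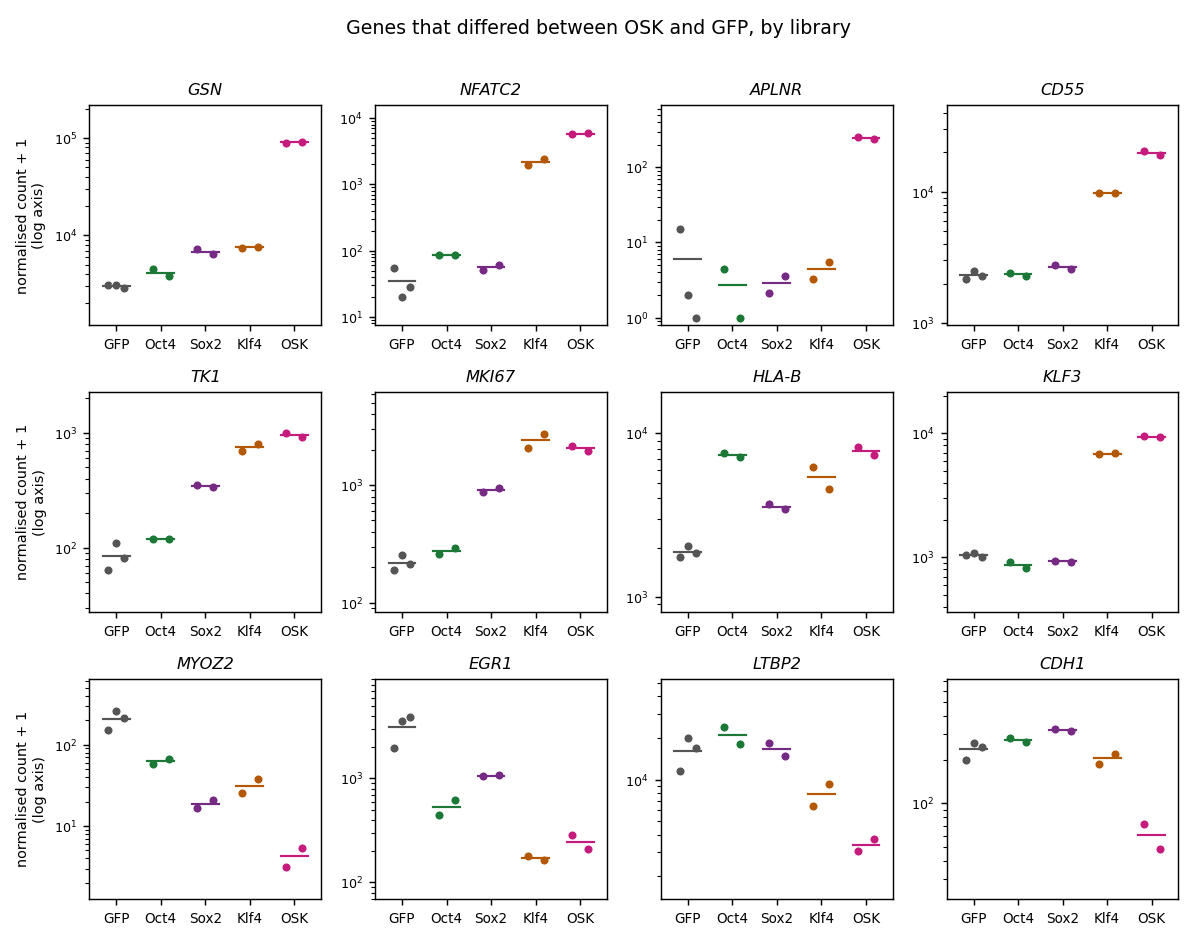
Normalised count + 1 (log axis) of 12 genes named in the text by line, with 1 point a library and a bar at the mean of each line. The OSK points of GSN, CD55 and KLF3 lie above every GFP point, those of MYOZ2, EGR1, LTBP2 and CDH1 lie below, and MKI67 in OSK lies among the Klf4 points.

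The promoters of several of these genes are shown for the letters they hold, from RefSeq windows of 250 bases before to 50 after the start site, on build GRCh38.p14, at the start farthest downstream where a gene has several. They are GSTA4, which the series' title names, a large rise, the largest fall, a mitotic gene, 2 replication genes and a contractile gene. The window of KLF4, a delivered factor with a larger rise than NFATC2, was also searched. It held no match of any motif and is not printed. Capitals mark matches, on either strand, of any motif searched: ATGCAAAT (octamer), CATTGTT (SOX), GGGTGTGG and GGGCGTGG (KLF), TTTGAA and CCAAT (mitotic promoters), TTTCCCGC and TTTGGCGC (E2F), and the CArG box of serum response factor. GSTA4 is at chr6:52995235-52995534, NFATC2 at chr20:51542670-51542969, MYOZ2 at chr4:119135582-119135881, MKI67 at chr10:128126374-128126673, TK1 at chr17:78187003-78187302, CDT1 at chr16:88803539-88803838 and ACTC1 at chr15:34795500-34795799. NFATC2, CDT1 and ACTC1 were chosen after their values or matches were seen. CDT1 and ACTC1 were taken as the largest changes on their lists among genes with an E2F or a CArG match. For ACTC1, with 3 starts, only starts with a CArG match were considered. The E2F match of CDT1 and the CArG match of ACTC1 therefore follow from the choice.
GSTA4: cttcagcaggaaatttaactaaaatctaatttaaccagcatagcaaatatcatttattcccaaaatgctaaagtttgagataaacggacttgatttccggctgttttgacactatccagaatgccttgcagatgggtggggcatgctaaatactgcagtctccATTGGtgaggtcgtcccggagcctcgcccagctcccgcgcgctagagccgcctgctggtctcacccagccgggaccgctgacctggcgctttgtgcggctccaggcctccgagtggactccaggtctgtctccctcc
NFATC2: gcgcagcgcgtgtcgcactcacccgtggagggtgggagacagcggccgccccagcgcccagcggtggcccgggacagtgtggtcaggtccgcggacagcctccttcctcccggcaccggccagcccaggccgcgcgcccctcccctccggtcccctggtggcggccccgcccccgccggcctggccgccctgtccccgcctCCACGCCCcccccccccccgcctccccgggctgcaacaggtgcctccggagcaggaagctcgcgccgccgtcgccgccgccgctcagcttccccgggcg
MYOZ2: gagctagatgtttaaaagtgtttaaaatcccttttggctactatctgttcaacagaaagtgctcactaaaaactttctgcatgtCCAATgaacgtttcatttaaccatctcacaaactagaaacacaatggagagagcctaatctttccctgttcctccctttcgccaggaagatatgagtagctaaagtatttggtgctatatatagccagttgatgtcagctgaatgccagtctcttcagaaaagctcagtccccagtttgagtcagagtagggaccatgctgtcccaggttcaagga
MKI67: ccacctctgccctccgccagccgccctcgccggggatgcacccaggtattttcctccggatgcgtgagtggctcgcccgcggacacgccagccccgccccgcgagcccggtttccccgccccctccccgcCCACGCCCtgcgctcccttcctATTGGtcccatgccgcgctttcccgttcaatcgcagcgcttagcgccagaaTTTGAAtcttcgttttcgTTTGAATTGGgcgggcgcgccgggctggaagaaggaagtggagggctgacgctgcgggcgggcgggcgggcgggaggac
TK1: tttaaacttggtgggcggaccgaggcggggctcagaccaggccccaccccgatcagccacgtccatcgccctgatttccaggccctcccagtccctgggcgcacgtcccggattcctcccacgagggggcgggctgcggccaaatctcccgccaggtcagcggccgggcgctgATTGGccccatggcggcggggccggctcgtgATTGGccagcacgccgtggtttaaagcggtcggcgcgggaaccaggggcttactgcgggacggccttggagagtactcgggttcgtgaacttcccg
CDT1: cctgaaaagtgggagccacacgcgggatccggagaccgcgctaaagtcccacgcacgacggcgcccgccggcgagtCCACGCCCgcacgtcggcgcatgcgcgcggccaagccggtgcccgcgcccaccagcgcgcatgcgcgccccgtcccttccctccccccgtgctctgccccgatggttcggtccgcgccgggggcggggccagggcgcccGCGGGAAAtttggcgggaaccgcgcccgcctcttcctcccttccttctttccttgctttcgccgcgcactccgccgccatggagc
ACTC1: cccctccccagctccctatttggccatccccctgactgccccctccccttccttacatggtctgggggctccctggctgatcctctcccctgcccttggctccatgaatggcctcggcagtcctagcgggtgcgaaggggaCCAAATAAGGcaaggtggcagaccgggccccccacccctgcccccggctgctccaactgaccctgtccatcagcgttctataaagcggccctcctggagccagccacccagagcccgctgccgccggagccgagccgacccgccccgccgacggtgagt
In the MKI67 window TTTGAA lies 47 and 29 bases before the start, and reverse CCAAT lies at 98 and 24 bases, the latter overlapping a TTTGAA match. TK1 holds 2 reverse CCAAT matches, CDT1 an E2F match 35 bases before the start and ACTC1 a CArG match 109 bases before it.

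Letters of that kind were commoner in the windows of some lists than in all windows, as a description with no test. Of 38 windows of mitosis genes, 65.8% held TTTGAA and 73.7% held CCAAT, against 15.2% and 34.6% of all 35116 windows, and 52.6% held both against 5.90%. Of 40 windows of replication genes, 37.5% held an E2F match against 2.27% of all. Of 51 windows of contractile genes, 19.6% held a CArG match against 1.29%. The contractile list also takes in genes linked to serum response factor, so its CArG share can follow from how the list was chosen. Among the 17479 windows of genes tested, 10.6% held TTTGAA, 34.3% CCAAT, 4.17% both, 3.14% an E2F match and 1.11% a CArG match. For the letters of the delivered factors the same tested windows are the comparison. Either KLF form was in 10.2% of windows of genes higher in OSK, 10.9% of those of lower genes and 9.93% of tested windows. The SOX letters were in 1.94%, 2.61% and 2.15%, and the octamer in 1.80%, 1.06% and 1.39%, in the same order. A match is no site, and 12054 of 18828 genes had a window (31 of 38 mitosis, 32 of 36 replication and 27 of 33 contractile genes). In bulk RNA, fewer cells of a type and less RNA per cell cannot be told apart, which applies to every list that follows.

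Genes of cell division rose. Of 38 mitosis genes 37 were higher and 0 lower in OSK, against 19.7% and 20.0% of all genes tested, with a median difference of 2.40 against -0.01 over all. MKI67, a marker of cycling cells, held 189.7, 250.9 and 212.9 in GFP and 2167 and 1964 in OSK, a difference of 3.25 (SE 0.12, adjusted p = 1.93e-11). The other was CDC25C, a phosphatase that activates CDK1, at 1.18 (adjusted p = 0.051). Replication genes followed, with 28 of 36 higher and 0 lower and a median of 0.79. TK1, a nucleotide salvage kinase of S phase, held 62.6, 109.3 and 79.7 in GFP and 987.5 and 919.5 in OSK (log2 difference 3.53). E2F1, the S-phase transcription factor on the G1 list, held 70.5, 76.9 and 64.2 in GFP and 801.1 and 821.6 in OSK (log2 difference 3.51). That list moved both ways, with 7 higher and 6 lower of 15: CCND2, a D-type cyclin, fell by 1.73 and its kinase CDK4 by 0.82, and the lower count was 3 without either OSK library. Among 10 CDK inhibitors and pocket proteins 2 rose and 2 fell: CDKN2C rose by 2.89 and CDKN2B, the TGF-beta-induced inhibitor, fell from 5528, 7639 and 6791 in GFP to 2258 and 2590.3 in OSK (log2 difference -1.45). The shares of these 10 genes (20.0% each way) are those of the background. Of 23 p53 targets 5 rose (21.7%) and 6 fell (26.1%), also near it, with SESN1 at 1.17 and GADD45A at -1.38.

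**Figure D4:**
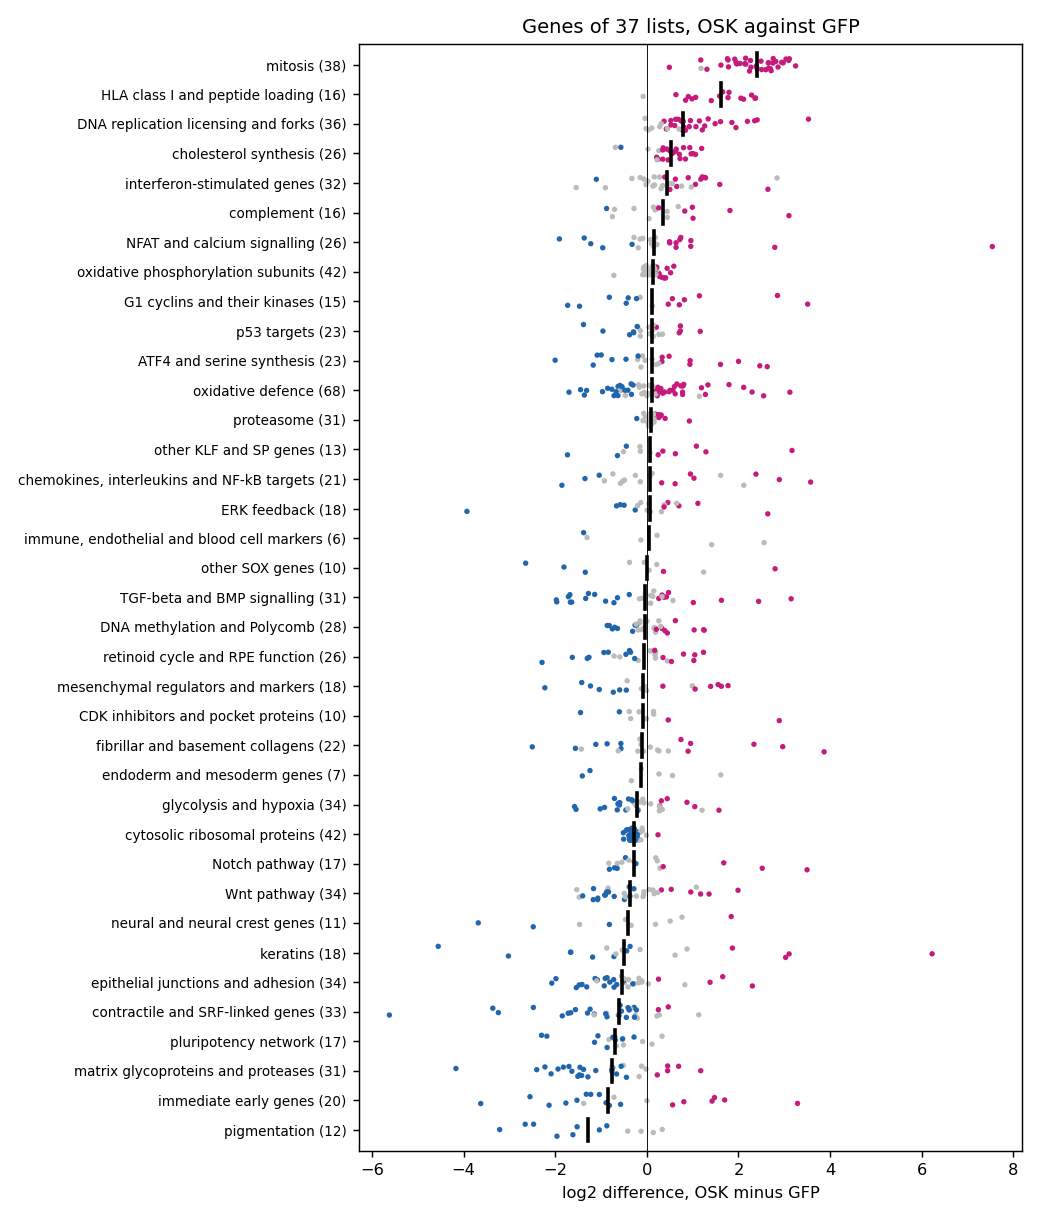
Log2 difference of OSK and GFP (horizontal axis) for each tested gene (points) of 37 lists, with the number of genes beside the name and a bar at the median. Pink points are higher, blue points lower and grey points not past the threshold. Mitosis, replication, cholesterol synthesis and HLA class I genes lie on the higher side, and pigmentation, immediate early, matrix and contractile genes on the lower side.

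RPE genes moved both ways, and pigment genes fell. Of 12 pigmentation genes 8 were lower (66.7%) and 0 higher, with a median of -1.28. Of all genes tested, 20.0% were lower and 19.7% higher. PMEL, which forms the fibrils on which melanin is laid, held 4094, 5281 and 6067 in GFP and 868.3 and 749.0 in OSK (log2 difference -2.65, SE 0.20, adjusted p = 2.79e-08). TRPM1, a melanocyte channel, held 402.2, 774.9 and 1051 in GFP and 87.8 and 61.6 in OSK, TYR, the rate-limiting melanin enzyme, fell by 2.47, and MITF, the pigment lineage factor, by 1.04. In these genes every OSK library lay below every GFP library. Of 26 retinoid and RPE function genes 7 rose (26.9%) and 10 fell (38.5%). SERPINF1, the secreted anti-angiogenic factor PEDF, fell by 1.63, while RDH5, a retinol dehydrogenase, rose by 1.24 and MERTK, the receptor for engulfing outer segments, by 1.05. OTX2, the RPE homeobox factor, was at 0.07 and not past the threshold. The lower count was 6 without OSK replicate 1.

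Epithelial genes fell more often than they rose. Of 34 junction and adhesion genes 17 were lower and 4 higher, with a median of -0.53. The shares over all genes tested were 20.0% lower and 19.7% higher. CDH1, the epithelial cadherin, held 199.6, 259.0 and 245.0 in GFP and 71.5 and 47.3 in OSK (log2 difference -1.98, SE 0.17, adjusted p = 1.07e-07), and the OSK difference was -2.21 from the Oct4 line, -2.44 from the Sox2 line and -1.78 from the Klf4 line. Of 18 keratin genes 4 rose and 8 fell, and the lower count was 5 without OSK replicate 2. By share, 22.2% of the keratin genes rose, near that of all genes tested, and 44.4% fell. The simple epithelial keratins fell, with KRT7 at 18494, 25066 and 24449.6 in GFP and 7197 and 7034 in OSK, KRT8 at -1.18 and KRT18 at -0.72, while the hair keratin KRT34 rose from 186.7, 251.9 and 231.3 in GFP to 2081 and 1759 in OSK. ZEB1, a repressor of CDH1, rose by 1.77. The 18 mesenchymal genes moved both ways, with 6 higher (33.3%) and 7 lower (38.9%), against 19.7% and 20.0% of all genes tested. CDH11, a mesenchymal cadherin, rose by 1.63 and FAP, a fibroblast protease, fell by 2.23.

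The chains of collagen IV, the network of basement membranes, differed in direction. Of 22 collagen genes 6 rose and 6 fell, 27.3% each way against 19.7% and 20.0% of all genes tested. COL4A3, a chain of specialised basement membranes, held 2033, 2179 and 2048 in GFP and 16845 and 15770.3 in OSK (log2 difference 2.97, SE 0.07, adjusted p = 1.38e-13). COL4A4, its partner, rose by 0.74, COL4A5 by 0.96 and COL4A6 by 2.34. Of the ubiquitous chains, COL4A1 fell, at 5893, 12807 and 10112 in GFP and 5775 and 4348 in OSK (log2 difference -0.87). COL4A2 held 10198, 20517 and 17676 in GFP and 11937 and 9164 in OSK, at -0.56 (adjusted p = 0.0337), and a fit with a replicate block ended that call (adjusted p = 0.125). GFP replicate 1 was the lowest GFP library for both, close to OSK for COL4A1 and overlapping OSK for COL4A2, and without it the differences were -1.18 and -0.86. COL7A1, the anchoring fibril collagen, held 302.9, 301.5 and 253.7 in GFP and 3732 and 4676 in OSK (log2 difference 3.87), while COL1A1, the main fibrillar collagen, held 2884, 4845 and 3841 in GFP and 557.2 and 796.3 in OSK (log2 difference -2.50).

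Matrix and contractile genes fell. Of 31 matrix genes 21 were lower and 5 higher, with a median of -0.76. Of all genes tested, 20.0% were lower and 19.7% higher. LOXL4, a lysyl oxidase, fell by 4.17 and ELN, elastin, by 2.40, whereas LOX itself rose by 1.18. The higher count was 3 without GFP replicate 2 and 2 without OSK replicate 1. Of 33 contractile genes 22 were lower and 2 higher, with a median of -0.61, and their summed level was 313738, 443444 and 426146 in GFP and 222845 and 224019 in OSK. GFP replicate 1 lay nearest to OSK in that sum, and 24 genes were lower without it. ACTC1, cardiac actin, held 118.2, 235.7 and 165.2 in GFP and 15.2 and 15.4 in OSK (log2 difference -3.36, SE 0.27, adjusted p = 7.97e-08), MYOCD, the smooth muscle co-activator of serum response factor, fell by 3.24 and TAGLN, transgelin, by 2.48. MRTFA, the related actin-sensing co-activator, rose by 0.47.

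Immediate early genes moved both ways. Of 20 genes 6 rose and 11 fell, with a median of -0.85. EGR1, a growth factor-induced zinc finger factor, held 1963, 3539.7 and 3868 in GFP and 282.9 and 206.8 in OSK (log2 difference -3.62, SE 0.22, adjusted p = 2.71e-09), and FOSB and JUN, subunits of AP-1, fell by 2.55 and 2.13. The rises were 3 orphan nuclear receptors, the AP-1 subunits FOSL2 (1.42) and JUNB (0.81) and the small Maf factor MAFF (0.56): NR4A3 held 20.9, 19.2 and 15.6 in GFP and 197.3 and 180.4 in OSK (log2 difference 3.29, SE 0.23, adjusted p = 1.27e-08), NR4A2 was at 1.70 and NR4A1 at 1.48. DUSP2, a nuclear MAP kinase phosphatase, held 98.3, 253.9 and 202.2 in GFP and 10.8 and 9.9 in OSK. Of 18 genes of ERK feedback 5 rose and 5 fell, 27.8% each way against 19.7% and 20.0% of all genes tested, and the lower count was 1 without OSK replicate 1. PHLDA1 rose by 2.64 and ETV5, an ERK-driven ETS factor, by 1.11.

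Of the TGF-beta and BMP genes 9 of 31 rose and 13 fell. The extracellular antagonists FST and NOG rose: FST, follistatin, which binds activin, held 39.7, 31.4 and 22.4 in GFP and 304.6 and 251.9 in OSK (log2 difference 3.15), and NOG, noggin, which binds BMP, held 49.6, 59.7 and 34.0 in GFP and 273.2 and 242.0 in OSK (log2 difference 2.44). The intracellular inhibitors SMAD7 and SMAD6 and the BMP targets ID2 and ID3 fell: SMAD7 was at -1.97, SMAD6 at -1.68, ID2 at -1.64 and ID3 at -1.71. FSTL3, an activin antagonist of the same family as FST, went the other way, from 16458, 21926 and 20013 in GFP to 4949.7 and 4948 in OSK. In the Wnt pathway 6 of 34 rose and 14 fell. TCF7L2, a DNA-binding partner of beta-catenin, held 1372, 1441 and 1355 in GFP and 5746 and 5303 in OSK (log2 difference 1.99), and FZD2, a receptor, fell by 1.40. Of 17 Notch genes 4 rose (23.5%) and 5 fell (29.4%), near the 19.7% and 20.0% of all genes tested. JAG1, a Notch ligand, held 379.3, 429.9 and 425.8 in GFP and 4698 and 4603 in OSK (log2 difference 3.50, SE 0.08, adjusted p = 9.69e-14), LFNG, which glycosylates Notch, rose by 2.52 and the receptor NOTCH1 fell by 0.82. Between OSK and the Sox2 line JAG1 differed by 0.15 (SE 0.09, adjusted p = 0.225). Of 26 NFAT and calcium genes 10 rose and 5 fell, with ITPR1, the calcium release channel, at 2.79 and NFATC1 at -1.22, and the lower count was 3 with no filter.

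Metabolic lists moved unequally, beside 19.7% higher and 20.0% lower over all genes tested. Of 26 cholesterol synthesis genes 21 rose and 1 fell, with a median of 0.52, and LSS, which closes the sterol ring, was the fall at -0.57. HSD17B7, a sterol reductase, held 277.1, 250.9 and 253.7 in GFP and 591.9 and 603.8 in OSK. In the ATF4 and serine list 9 of 23 rose and 7 fell. PHGDH, the first enzyme of serine synthesis, held 442.9, 385.4 and 390.8 in GFP and 2422 and 2600.2 in OSK (log2 difference 2.63, SE 0.13, adjusted p = 3.8e-10), and PSAT1, the next enzyme, rose by 2.47, whereas STC2, an ATF4 target, fell by 2.00. SLC2A1, the glucose transporter GLUT1, held 29039, 30080.2 and 29914 in GFP and 60506 and 62076 in OSK (log2 difference 1.05), while SLC2A3, GLUT3, fell by 1.54, and the glycolysis and hypoxia list had 6 of 34 higher and 15 lower. That lower count was 9 without OSK replicate 2. Of 68 oxidative defence genes 28 rose and 19 fell, with SLC7A11, the cystine importer, at 2.55 and TXNRD1, thioredoxin reductase, at -1.31. GSTA4, a transferase that conjugates lipid aldehydes, held 88.4, 127.5 and 125.4 in GFP and 514.9 and 464.2 in OSK (log2 difference 2.11, SE 0.17, adjusted p = 7.68e-08), and 1.94 without GFP replicate 1.

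Among housekeeping lists, 33 of 42 cytosolic ribosomal protein genes fell (78.6%, against 20.0% of all genes tested) and 1 rose, with a median of -0.28. The differences were small, with RPS2 at -0.51 and RPL22 at -0.51, and the lower count was 18 without OSK replicate 2. Ribosomal protein genes have many processed copies, and how shared reads were counted is not given in the sources used here. Of 42 oxidative phosphorylation subunits 11 (26.2%) were higher and 0 lower, with a higher count of 6 without either OSK library and 7 without GFP replicate 3. Of 31 proteasome genes 7 (22.6%) were higher and 1 lower, and the higher count was 4 without OSK replicate 2. The higher shares of both lists are near the 19.7% of all genes tested, so they are no result about these lists.

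Antigen presentation genes rose together. Of 16 HLA class I and peptide loading genes 15 were higher and 0 lower, with a median of 1.62. Of all genes tested, 19.7% were higher and 20.0% lower. HLA-B, a classical class I heavy chain, held 1752, 2033 and 1861 in GFP and 8274 and 7342 in OSK (log2 difference 2.05, SE 0.11, adjusted p = 5.87e-10), and B2M, the light chain, held 3531, 3483 and 3626 in GFP and 11122 and 10239 in OSK (log2 difference 1.59). PSMB9, an immunoproteasome subunit, rose by 2.37 and NLRC5, a transactivator of class I genes, by 2.11. Class I heavy chains share sequence, so the split of reads among HLA genes is uncertain, which does not apply to B2M or PSMB9. Of 32 interferon-stimulated genes 12 rose (37.5%) and 1 fell. DDX60, an RNA helicase, held 75.5, 72.8 and 90.4 in GFP and 510.6 and 489.4 in OSK (log2 difference 2.64), and the fall was IRF7, a master factor of the type I response, at -1.10. Of 16 complement genes 6 rose (37.5%) and 1 fell, and the rises included surface inhibitors. CD55, which speeds the decay of complement convertases, held 2172, 2484 and 2272 in GFP and 20478 and 19128 in OSK (log2 difference 3.10, SE 0.07, adjusted p = 6.75e-14), and CD59, which blocks the terminal pore, held 4592, 5326 and 5088 in GFP and 17737 and 17386 in OSK (log2 difference 1.81). Chemokine, interleukin and NF-kB genes rose in 33.3% and fell in 14.3%, the latter under the 20.0% of all genes tested. Of 21 chemokine, interleukin and NF-kB genes 7 rose and 3 fell, with ICAM1 at 1.03 and IL18 at -1.85, and the higher count was 2 without OSK replicate 1.

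KLF3, a repressor of the same family as KLF4, held 1047, 1093 and 1008 in GFP and 9555 and 9313 in OSK (log2 difference 3.17, SE 0.07, adjusted p = 5.41e-14), and 6 of 13 other KLF and SP genes rose and 3 fell. Of 10 other SOX genes 2 rose and 3 fell, and 4 rose without GFP replicate 1. SOX5 held 55.6, 50.6 and 54.4 in GFP and 383.8 and 372.9 in OSK (log2 difference 2.80), whereas SOX4 fell by 1.81. Of 28 DNA methylation and Polycomb genes 8 rose and 8 fell, with UHRF1, the maintenance cofactor, at 1.25 and DNMT3A, a de novo methyltransferase, at -0.86. That lower count was 5 without OSK replicate 1, without GFP replicate 2 and without GFP replicate 3. The shares of SOX genes (2 and 3 of 10) and of methylation and Polycomb genes (28.6% each way) lie near those of all genes tested, 19.7% and 20.0%. Neural genes were 1 higher and 3 lower of 11, with TUBB3, neuronal tubulin, at -2.48, and of 7 endoderm and mesoderm genes 2 fell. Their lower shares, 27.3% and 28.6%, are also near the 20.0% of all genes tested.

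OSK was then compared with each single-factor line, which shares the same OSK libraries. OSK was higher than the Oct4 line for 3471 genes (18.4%) and lower for 4114 (21.9%), higher than Sox2 for 3764 (20.0%) and lower for 3856 (20.5%), and higher than Klf4 for 1800 (9.56%) and lower for 2249 (11.9%). Genes past GFP and every single-factor line in 1 direction were 521 above (2.77%) and 631 below (3.35%), and their sum of 1152 was 722 without OSK replicate 1 and 731 without OSK replicate 2. Of the 38 mitosis genes, 38 were higher in OSK than in the Oct4 line and 32 than in the Sox2 line, while 2 were higher and 1 lower than in the Klf4 line (median -0.11). Of 33 contractile genes 23 were lower in OSK than in Oct4, 25 than in Sox2 and 9 than in Klf4, and 2 were higher than in Klf4. Of 12 pigmentation genes 7 were higher than in Sox2 and 8 lower than in Klf4. Of 16 HLA class I and peptide loading genes 13 were higher than in Sox2, 6 higher and 4 lower than in Oct4, and 5 higher than in Klf4. Interferon-stimulated genes went the other way against Oct4, with 12 of 32 lower in OSK and 2 higher. The genes that follow passed the test against GFP and each line. They also had a mean of at least 100 normalised counts in OSK or GFP and a call without GFP replicate 1. These further criteria were not applied to the 521 and 631 genes. On the lower side were 7 of 33 contractile genes, among them MYOZ2 and MYL9. With them were 7 of 31 matrix genes, among them LTBP2 and SPARC. On the higher side were COL7A1, COL4A3, COL4A4 and COL4A6, HLA-C, HLA-E and B2M, CD55 and CD59, and TCF7L2.

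Values in all lines show how far OSK lay from its nearest neighbour. COL7A1 held 556.2 and 393.7 in the Oct4 line, 779.8 and 649.9 in Sox2 and 720.6 and 1149 in Klf4, and OSK exceeded Klf4 by 2.20 (SE 0.19). PHGDH held 195.1 and 274.7, 591.3 and 573.7 and 470.8 and 603.3 in the same order, all under 2422 and 2600.2 in OSK. In both genes OSK stood clear of every other library, in contrast to EGR1, whose Klf4 libraries at 177.0 and 162.2 lay below OSK. TMC6, a channel-like gene, held 239.2 and 297.6, 103.2 and 96.8 and 778.4 and 633.0 and rose to 6400.1 and 5662 in OSK. TNS1, tensin, a focal adhesion protein, held 2615, 5099.7 and 3696 in GFP, 6606 and 5972 in Oct4, 7838 and 6991 in Sox2, 7019.6 and 8181 in Klf4 and 832.5 and 898.6 in OSK. It was thus lowest in OSK while each single-factor line lay above GFP. ANGPTL7, a secreted angiopoietin-like protein, fell by 3.00 against GFP, and SMAD7 and FSTL3 were likewise below every other line. For NFATC2 OSK exceeded the Klf4 line by 1.44 (adjusted p = 0.00212), and the Klf4 libraries held 1965 and 2381.

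Leaving out GFP replicate 1 gave 7845 called genes (41.7%), of which 6993 were shared with the 7471, and 0 genes called in both changed direction. The 478 genes lost had a median level of 164 normalised counts and the 852 gained had 120, against 531 over all called genes. Of the 244 lost among lower genes, 195 had their highest GFP library in GFP replicate 1. Losing a lower call without GFP replicate 1 favours such genes, so this count partly follows from the selection. The genes that gained most were low outside that library: WDFY4 held 50.6, 0 and 0 in GFP and 31.4 and 16.5 in OSK, with a difference of 2.68 that became 4.57 (adjusted p = 0.000684). NPC1L1, the intestinal cholesterol importer, held 72.5, 0 and 0 in GFP and 10.8 and 2.2 in OSK, at 0.56 with all libraries and 2.62 without GFP replicate 1. CBLIF, gastric intrinsic factor, was called lower with that library and not without it, and held 20.9, 2.02 and 1.94 in GFP and 0 and 0 in OSK. Between the OSK libraries, MROH2A differed most among called genes with a mean of at least 100, at 31.4 and 11 against 140.0, 129.5 and 114.7 in GFP.

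Without both GFP replicate 1 and OSK replicate 1, 6265 genes (33.3%) were called, and 5768 genes were called in all 3 fits.

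**Figure D5:**
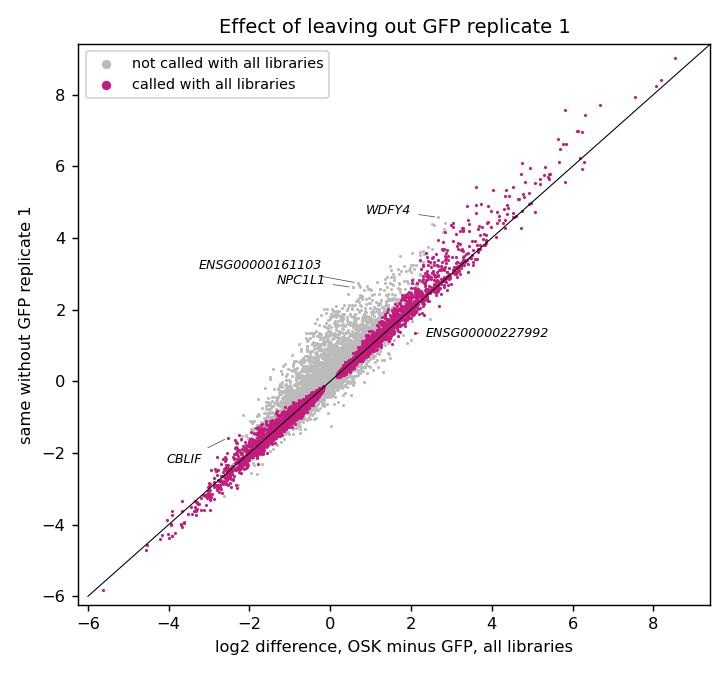
Log2 difference of OSK and GFP without GFP replicate 1 (vertical axis) against that with all libraries (horizontal axis), 1 point a gene. Most points lie near the diagonal, and labelled genes such as NPC1L1 and WDFY4 lie above it.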

How the data were processed

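RNA was extracted with TRIzol and libraries made with oligo(dT) selection and the NEBNext Ultra II kit, per the labels' protocols. The submitters' processing notes name STAR 2.7.1a, featureCounts 1.6.2 and the builds GRCh38, hg38, GRCm38 and mm10. The deposited values are a signal in normalised counts, 1 table of 60605 features; the normalization, annotation and use of strand are not given in the sources used here. The value of 1 read was recovered in each library from the steps of low values, and at least 99.97% of all values came out whole reads in each. Genes with a value of 10 or more in at least 2 of 11 libraries (18828) were tested with limma 3.58.1 (R 4.3.3, with a mean-variance trend) after a log2(value + 1) transform, with all 11 libraries in 1 fit and a mean per group, Benjamini-Hochberg adjusted over all genes tested, threshold 0.05 (6 residual and 9.21 prior degrees of freedom). Fold changes on this scale understate those of low genes.

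Alternatives were edgeR 4.0.16 and DESeq2 1.42.0 on recovered reads, other scalings, filters and pseudocounts, a replicate block and leaving out libraries. The fit was tested on simulated data. Members and lists were chosen with earlier results of these data known. Named genes are the delivered factors and GSTA4, the 8 largest rises and falls with a mean of at least 100 and the 6 with a mean of at least 5000 in the higher group, the 2 largest rises and falls on each list, the 3 that gained or lost most without GFP replicate 1 and the 3 that differed most between OSK libraries (MROH2A, MYO15B and CDK5R1). Except for the last 2 kinds and the factors, they had to pass with and without GFP replicate 1. Other genes named were chosen for their role or after their values were seen. Some genes that these rules name are not reported here.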

Additional observations from a re-analysis of the deposited data

How the results depend on the processing

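The count of 7471 called genes was 6299 to 7511 under the other tools, scalings, filters and pseudocounts (DESeq2 gave 6368 and no filter 6299), 6646 with only the GFP and OSK libraries, and 5546 to 7845 when 1 library was left out. The 1152 genes past GFP and every single-factor line became 722 to 1400 when 1 library was left out. With a replicate block 6469 genes were called. Deviations from the group means of same-numbered GFP and OSK libraries correlated at 0.435 and 0.31, and those of GFP replicate 3 and OSK replicate 2, which differ in number, at 0.337. With 2 OSK libraries their deviations mirror each other, so these values do not show pairing, and the labels name none. Of 2378 values of named genes under 16 alternatives, 2300 kept direction and side of the threshold, 59 no longer passed, 4 passed only then and 15 reversed. The reversed values belong to 2 genes: NPC1L1 gave -1.843 with edgeR TMM, -1.861 with median-of-ratios, -1.885 with DESeq2, -0.223 with a pseudocount of 5, -0.478 with the block, and -0.478 to 2.622 when 1 library was left out. ENSG00000161103 gave -1.187, -1.205 and -1.215 with those tools, -0.597 with the block, and -0.883 to 2.742 when 1 library was left out. The cause was not tested. With no filter the median of all genes moved to -0.236. Medians of 12 lists changed sign under some alternative, including collagens, TGF-beta and Notch genes. The 2 OSK libraries limit the precision of every value given.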
